A study of Mus musculus with 12 samples.

Results

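The nuclear factor I family of transcription factors was followed in cerebellar granule cell progenitors of mice. Its members are Nfia, Nfib, Nfic and Nfix, 4 of the 18193 genes measured on the arrays. They were chosen by exact gene symbol in the platform annotation, which gave 23 of 45037 probe sets: 6 for Nfia, 7 for Nfib, 5 for Nfic and 5 for Nfix. Every probe set is reported, and for each gene the brightest one, by its mean over the 12 arrays, stands first.

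Granule cell progenitors are the dividing cells of the external granule layer, from which the granule neurons of the cerebellum arise. SmoM2 progenitors carried the alleles Atoh1-CreER/+ and R26LSL-SmoM2-YFP. SmoM2 is an activated form of Smoothened, the membrane protein that passes on the hedgehog signal, and tamoxifen at 200 µg per g on postnatal day 2 let the Cre recombinase remove the stop cassette in cells that use the Atoh1 promoter. The other progenitors were wild type, and the labels do not state whether those mice were given tamoxifen. Progenitors of both genotypes were taken at postnatal day 8 on a mixed C57BL/6 and Swiss Webster background, by Percoll gradient, from the hemispheres (the lateral cerebellum) or from the vermis (its midline). The 4 groups were SmoM2 hemisphere, wild type hemisphere, SmoM2 vermis and wild type vermis, with 3 arrays each and 5 mice pooled for every array. The labels also do not state what share of SmoM2 cells had recombined. The p-values measure the spread between these pools, and the number of arrays limits the precision.

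Nuclear factor I proteins bind DNA as dimers, each partner reading the letters TTGGC or, on the other strand, GCCAA, and they activate or repress genes depending on the site. In the developing nervous system of the mouse they are known for the start of glial differentiation, in which NFIA acts together with SOX9. In cerebellar granule cells, work in mice ties them to the steps after division, among them axon outgrowth, migration, dendrite formation and the onset of genes of the mature neuron. The genes lie at chr4:97578066-98118876 (Nfia), chr4:82290173-82506751 (Nfib), chr10:81396191-81431919 (Nfic) and chr8:84704712-84801238 (Nfix) in the RefSeq annotation of GRCm38.p6.

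RefSeq promoter windows of 300 bases run from 250 bases before to 50 bases after an annotated start. They were matched for 3 of the 4 members, with 1 window for Nfia, 1 for Nfic and 4 for Nfix. Each lies inside the gene interval given above and not at its 5' end, so the outermost starts were not searched. One window of Nfia (chr4:97581693-97581992, plus strand) and one of Nfix (chr8:84772826-84773125, minus strand) are shown because the hedgehog pathway acts through GLI factors and because TTGGC is what the family itself binds. Capitals mark matches, on either strand, to the core of the GLI site (CCACCC, read GGGTGG on the other strand) and to TTGGC or GCCAA.
Nfia: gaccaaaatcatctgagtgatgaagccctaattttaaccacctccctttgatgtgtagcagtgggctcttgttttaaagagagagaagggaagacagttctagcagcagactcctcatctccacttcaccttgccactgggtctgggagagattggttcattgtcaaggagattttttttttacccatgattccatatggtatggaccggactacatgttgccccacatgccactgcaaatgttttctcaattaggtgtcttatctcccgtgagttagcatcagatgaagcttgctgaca
Nfix: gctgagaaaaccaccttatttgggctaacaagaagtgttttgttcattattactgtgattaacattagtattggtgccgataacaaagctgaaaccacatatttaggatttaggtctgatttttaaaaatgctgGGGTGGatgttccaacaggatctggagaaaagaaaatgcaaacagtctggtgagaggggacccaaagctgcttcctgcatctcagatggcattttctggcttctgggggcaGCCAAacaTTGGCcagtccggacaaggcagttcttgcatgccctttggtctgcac
The Nfia window held none of the letters searched and had 2 CpG dinucleotides and a GC content of 44.7%. The Nfix window had GGGTGG from base -116 to -111 before the start, GCCAA from -5 to -1 and TTGGC from 3 to 7, with GC content 44.3%. All 4 Nfix windows held the GLI core and 3 of them held TTGGC or GCCAA, while the Nfic window (chr10:81427124-81427423, minus strand, 24 CpG dinucleotides, GC content 63.0%) held neither. The GLI core is common, since 31.5% of 32851 mouse windows of the same length held it, and 46.7% held TTGGC or GCCAA. The full GLI site GACCACCCA, found in 0.253% of all windows, and the paired NFI site, which is TTGGC and GCCAA with 5 bases between them and was found in 0.0365%, were in no window of the 3 genes.

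Expression is given on the log2 scale throughout. Array medians ran from 4.81 to 4.87 and upper quartiles from 6.90 to 7.10. Replicate 3 of the wild type hemisphere stood apart, with the dimmest added control transcripts of the 12 arrays. Results that rest on it are given with and without it. On the dap control it read 9.01, and replicates 1 and 2 of its group read 10.647 and 10.001. Arrays of the other groups read 10.949 to 12.074 on dap. So dap was lower on every wild type hemisphere array than on every SmoM2 hemisphere array. Leaving out replicate 3 does not remove this. The bioB control overlapped between these groups. Replicate 3 of the wild type hemisphere also had the smallest gap between the 3' and 5' probe sets of Actb, 0.46. That gap, which rises with loss of the 5' end of the RNA, was 0.90 to 1.10 in SmoM2 hemisphere, 0.46 to 0.79 in wild type hemisphere, 0.89 to 1.07 in SmoM2 vermis and 0.88 to 0.90 in wild type vermis. Gli1, a direct target gene of the hedgehog pathway, was 1.68 log2 units higher in SmoM2 than in wild type progenitors in the hemisphere (3.21-fold) and 1.503 higher in the vermis (2.83-fold). Across all genes the median SmoM2 minus wild type difference was -0.05 in the hemisphere and -0.06 in the vermis.

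On the brightest probe sets, Nfia was the 1 member of the 4 that rose with SmoM2. In the hemisphere it read 12.10, 12.11 and 12.07 in SmoM2 progenitors, against 11.68, 11.68 and 11.69 in wild type progenitors. In the vermis it read 11.95, 11.996 and 12.10 in SmoM2 progenitors, against 11.87, 11.67 and 11.83 in wild type progenitors. Each SmoM2 array was above each wild type array, within both regions and with the regions pooled. The log2 difference in the hemisphere was 0.41 ± 0.09 (SE, 1.33-fold), which passed the test (limma, adjusted p = 0.00852 over all genes). In the vermis it was 0.23 ± 0.09 with an interval of 0.03 to 0.43, and it did not pass (limma, adjusted p = 0.102). Averaged over both regions it was 0.32 ± 0.06 (1.25-fold, limma, adjusted p = 0.00217). Thus 1 of the 4 members passed in the hemisphere and 0 of 4 in the vermis, where 1 of 4 had an unadjusted p below the threshold, as had 33.0% of all genes. Among all genes 14.8% passed in the hemisphere, 17% in the vermis and 35.5% for the mean of both regions. Groups without overlap were also common, at 31.7% of all genes in the hemisphere, 39.8% in the vermis and 15.8% with the 6 SmoM2 arrays set against the 6 wild type arrays. In these bulk samples, a change in the share of cells that express Nfia and a change in its RNA per cell cannot be told apart.

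**Figure D1:**
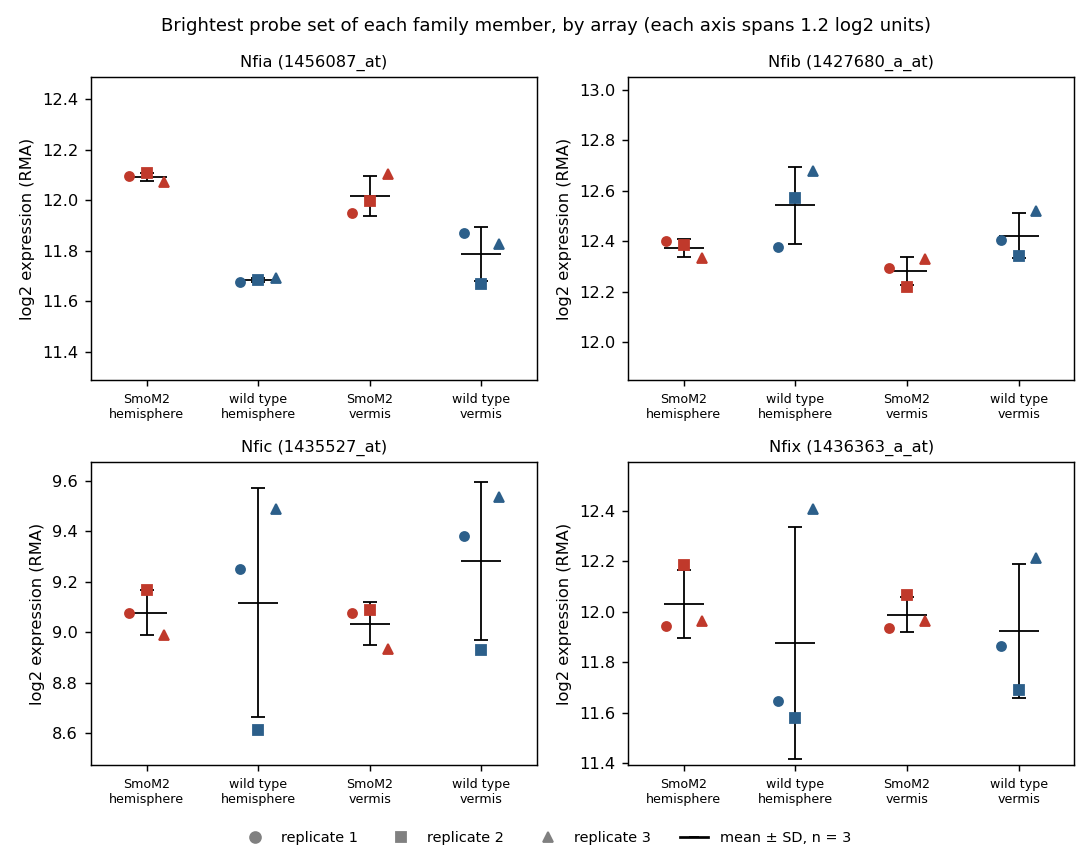
Log2 expression of the brightest probe set of each family member on the 12 arrays, with a point for each array, its shape giving the replicate number, and bars for the mean and SD of the 3 arrays of a group. The 6 SmoM2 values of Nfia (11.95 to 12.11) lie above the 6 wild type values (11.67 to 11.87), while the wild type values of Nfic and Nfix are widely spread.

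The other 5 Nfia probe sets differed in the same direction, and the size of the difference varied between them. On 1438236_at the hemisphere values were 8.89, 8.75 and 9.04 in SmoM2 progenitors, against 8.03, 7.34 and 6.65 in wild type progenitors. The same probe set read 8.59, 8.71 and 9.004 in SmoM2 vermis, against 8.58, 7.80 and 8.00 in wild type vermis, so replicate 1 of the wild type vermis lay just below the lowest SmoM2 vermis array. Its hemisphere difference of 1.55 (2.93-fold, limma, adjusted p = 0.00238 over all probe sets) was the largest of the 6, and its vermis difference of 0.64 did not pass (adjusted p = 0.143). The 1446990_at probe set behaved alike, with a difference of 1.09 in the hemisphere (limma, adjusted p = 0.00163) and of 0.41 in the vermis (adjusted p = 0.158), where the groups overlapped.

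A pair of dimmer probe sets, each designed to several transcripts of the gene, had vermis differences close to those of the hemisphere. On 1421162_a_at the values were 7.18, 6.995 and 7.11 in SmoM2 hemisphere against 6.45, 6.55 and 6.41 in wild type hemisphere, and 6.97, 7.14 and 7.22 in SmoM2 vermis against 6.80, 6.28 and 6.47 in wild type vermis. It rose by 0.62 in the hemisphere (limma, adjusted p = 0.00701) and by 0.60 in the vermis (adjusted p = 0.00948). The groups did not overlap in either region. On 1427733_a_at the difference was 0.48 in the hemisphere (limma, adjusted p = 0.0539) and 0.53 in the vermis, where it passed (adjusted p = 0.0341). The brighter 1421163_a_at is also designed to several transcripts, and its regions were less alike. On it the difference was 0.40 in the hemisphere, where it passed (limma, adjusted p = 0.0189), and 0.25 in the vermis (adjusted p = 0.117).

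In all, 5 of 6 Nfia probe sets rose in the hemisphere, against 6.21% of all probe sets, and 2 of 6 in the vermis, against 5.68%. For the mean of both regions all 6 rose, against 13.6% of all probe sets, with adjusted p from 0.000301 to 0.00406 in limma. The SmoM2 arrays were all above the wild type arrays for 6 of 6 in the hemisphere (12.7% of all probe sets), 5 of 6 in the vermis (15.9%) and 5 of 6 with the regions together (6.71%). Probe sets of 1 gene share their RNA and are not independent. Without replicate 3 of the wild type hemisphere, 4 of 6 rose in the hemisphere, 2 of 6 in the vermis and 6 of 6 in the mean. Without that array 1421163_a_at did not pass in the hemisphere (limma, adjusted p = 0.0663), the brightest probe set did (0.41, adjusted p = 0.0313), and 1438236_at differed by 1.21. The Actb 3' to 5' gap and the dap control did not overlap between genotypes in the hemisphere and did in the vermis. Within wild type hemisphere, 1438236_at, 1446990_at and 1427733_a_at fell from replicate 1 to replicate 3, as dap did, and the other Nfia probe sets did not. The part of the Actb gap and of dap in the Nfia differences was not tested. The probe set for 18S ribosomal RNA read 10.499 to 10.865 in SmoM2 hemisphere against 10.011 to 10.397 in wild type hemisphere, and 10.72 to 10.763 in SmoM2 vermis against 10.031 to 10.221 in wild type vermis. It was higher on every SmoM2 array than on every wild type array, and its part was likewise not tested.

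**Figure D2:**
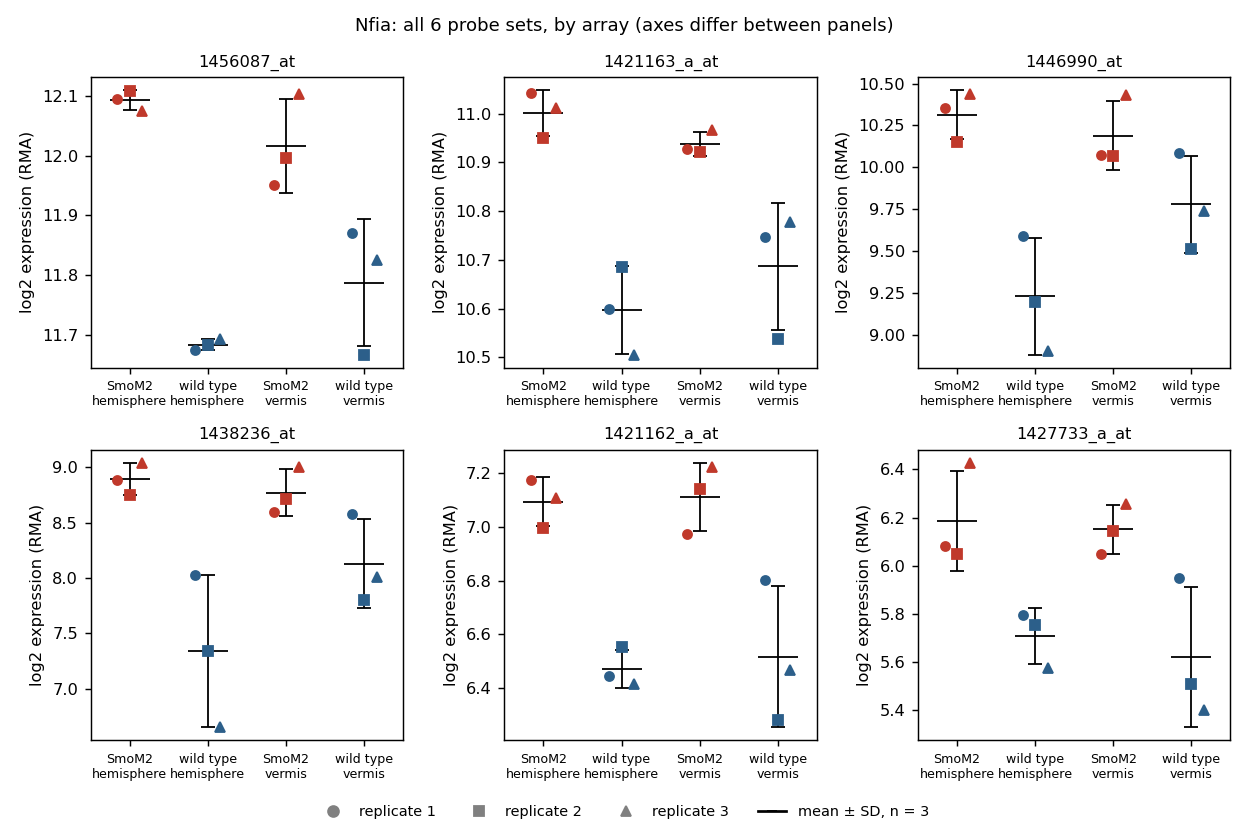
Log2 expression of the 6 Nfia probe sets on the 12 arrays, each panel with its own axis, with a point for each array, its shape giving the replicate number, and bars for the mean and SD of the 3 arrays of a group. SmoM2 hemisphere lies above wild type hemisphere in all 6 panels, and the separation in the vermis is incomplete for 1446990_at.

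Nfib, which in mice is needed for lung and forebrain development, did not pass on its brightest probe set. It read 12.40, 12.39 and 12.33 in SmoM2 hemisphere, against 12.38, 12.57 and 12.68 in wild type hemisphere, so the groups overlapped. It read 12.30, 12.22 and 12.33 in SmoM2 vermis, against 12.40, 12.34 and 12.52 in wild type vermis, where each SmoM2 array was below each wild type array by a narrow margin. The differences were -0.17 ± 0.10 (SE; interval -0.39 to 0.05, limma, adjusted p = 0.268) in the hemisphere and -0.14 ± 0.10 (interval -0.36 to 0.07, adjusted p = 0.346) in the vermis. The mean of both regions, -0.16 ± 0.07, had an unadjusted p of 0.0467 and an adjusted p of 0.102 in limma.

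Of the 7 Nfib probe sets 1 fell in the hemisphere, against 4.54% of all probe sets. This was the dimmest, 1416293_at, with 5.63, 5.88 and 5.65 in SmoM2 hemisphere against 6.16, 6.32 and 6.36 in wild type hemisphere, a difference of -0.56 (limma, adjusted p = 0.0192). In the vermis its groups overlapped, with 5.93, 5.51 and 5.68 in SmoM2 against 5.67, 6.07 and 5.72 in wild type (difference -0.11, limma, adjusted p = 0.613). Its mean over both regions passed (-0.34, limma, adjusted p = 0.0210), as did that of 14.5% of all probe sets in this direction. The other 6 Nfib probe sets did not pass, with hemisphere differences of -0.20 to 0.25 and vermis differences of -0.14 to 0.04, both signs occurring.

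Nfic, which in mice is needed for tooth root formation, gave no call. Its brightest probe set read 9.07, 9.17 and 8.99 in SmoM2 hemisphere, against 9.25, 8.61 and 9.49 in wild type hemisphere. It read 9.07, 9.09 and 8.93 in SmoM2 vermis, against 9.38, 8.93 and 9.53 in wild type vermis. The SmoM2 values lay inside the wild type range in both regions, with differences of -0.04 ± 0.19 (SE; interval -0.45 to 0.37, limma, adjusted p = 0.908) in the hemisphere and -0.25 ± 0.19 (interval -0.66 to 0.17, adjusted p = 0.387) in the vermis. In limma, 0 of its 5 probe sets passed in either region or in the mean. Of the 5, 1 set, 1429148_at, had an unadjusted limma p below the threshold in the hemisphere (0.0488) and in the mean (0.0302), against 0 of 5 in the vermis. Among all genes, each on its brightest probe set, 30.9% had an unadjusted p below the threshold in the hemisphere, 46.6% in the mean and 33.0% in the vermis. The share over all probe sets, most like this count, is not given. The 4 probe sets besides the brightest, 1429148_at among them, averaged 2.61 to 4.77. They so lay below the array medians, where RMA values compress differences. One of them, 1422565_s_at, was also below the lower quartile of the arrays (3.24 to 3.42) and is of a class that can match several genes.

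Nfix, which in mice is needed for the timing of granule neuron maturation, also gave no call on its brightest probe set. It read 11.94, 12.19 and 11.96 in SmoM2 hemisphere, against 11.65, 11.58 and 12.41 in wild type hemisphere. It read 11.93, 12.07 and 11.96 in SmoM2 vermis, against 11.87, 11.69 and 12.21 in wild type vermis. The groups overlapped in both regions, with replicate 3 of the wild type above the SmoM2 arrays and the other wild type arrays below them. The differences were 0.16 ± 0.19 (SE; interval -0.25 to 0.56, limma, adjusted p = 0.606) in the hemisphere and 0.07 ± 0.19 (interval -0.34 to 0.47, adjusted p = 0.830) in the vermis. Without replicate 3 of the wild type hemisphere the hemisphere difference was 0.42 (limma, adjusted p = 0.0787).

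Of the other 4 Nfix probe sets 1 rose in the mean of both regions, against 13.6% of all probe sets. This was 1459909_at, with 6.47, 6.35 and 6.22 in SmoM2 hemisphere against 6.14, 5.73 and 6.20 in wild type hemisphere, and 6.46, 6.51 and 6.42 in SmoM2 vermis against 6.05, 5.88 and 6.23 in wild type vermis. Its mean difference was 0.37 (limma, adjusted p = 0.0122), while the separate differences of 0.32 (adjusted p = 0.138) and 0.41 (adjusted p = 0.0650) did not pass. The dim 1451443_at differed by 0.51 in the hemisphere (limma, adjusted p = 0.0647) and by -0.11 in the vermis. No Nfix probe set passed within a region.

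**Figure D3:**
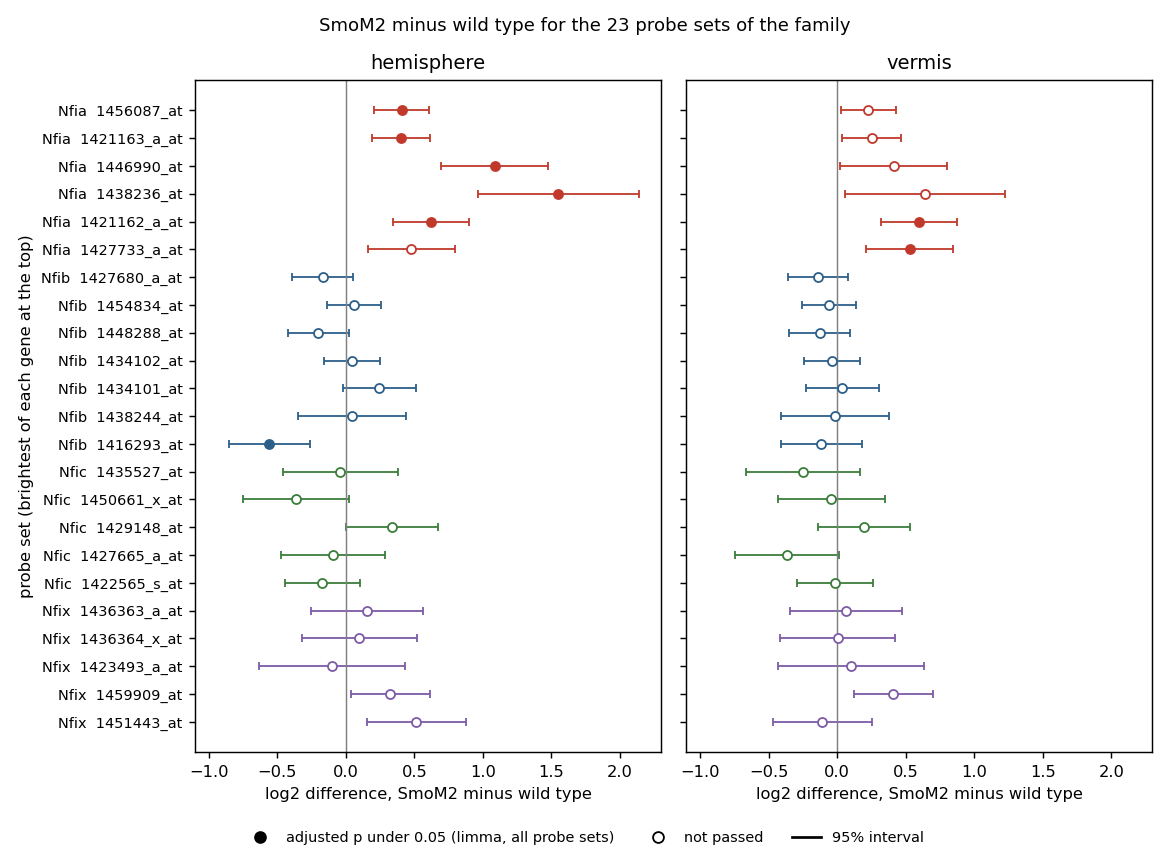
SmoM2 minus wild type log2 difference of each of the 23 family probe sets, with the 95% interval of the limma fit, in the hemisphere and in the vermis. Filled points passed at an adjusted p under 0.05 over all probe sets. They are 5 Nfia sets and 1 dim Nfib set in the hemisphere and 2 Nfia sets in the vermis.

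Wild type replicates of Nfic and Nfix were spread more widely than SmoM2 replicates. For Nfic the SD was 0.09 in SmoM2 hemisphere against 0.45 in wild type hemisphere, and 0.09 in SmoM2 vermis against 0.31 in wild type vermis. For Nfix it was 0.13 in SmoM2 hemisphere against 0.46 in wild type hemisphere, and 0.07 in SmoM2 vermis against 0.27 in wild type vermis. For both genes and in both regions, wild type replicate 3 was the highest and replicate 2 the lowest of its group. The median SD over all genes was also smaller in SmoM2, at 0.12 against 0.18 in the hemisphere and 0.11 against 0.14 in the vermis. The SDs of Nfic and Nfix in wild type hemisphere exceeded those of 96.3% and 96.6% of genes. These spreads are a description, and the difference between genotypes was not tested.

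Whether members differed in their response was tested within arrays, as the difference between the brightest probe sets of a pair, with genotypes exchanged within each region. The exact two-sided permutation test had 400 arrangements and a smallest possible p of 0.005, and p-values were adjusted over the 6 pairs. The log2 difference Nfia minus Nfib was -0.34 to -0.22 in the 6 SmoM2 arrays, against -0.99 to -0.53 in the 6 wild type arrays, with no overlap. The SmoM2 effect on Nfia exceeded that on Nfib by 0.47 (exact permutation p = 0.005, adjusted p = 0.03). It stayed at an adjusted p of 0.03 or less whichever array was left out. These arrangements exchange the regions independently. Same-numbered hemisphere and vermis pools varied together in wild type (correlations 0.34 to 0.53) and less so in SmoM2 (0.14 to 0.27). With both regions of a number exchanged together 20 arrangements remain and the smallest possible p is 0.1, so no pair can pass, and the exact permutation p of Nfia minus Nfib was 0.1 (adjusted p = 0.2).

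The SmoM2 effect on Nfia exceeded that on Nfic by 0.46 (exact permutation p = 0.015, adjusted p = 0.04), and the effect on Nfix exceeded that on Nfic by 0.25 (exact permutation p = 0.02, adjusted p = 0.04). The Nfia and Nfic call was lost without any 1 of 9 arrays, and the Nfix and Nfic call without any 1 of 10. Nfia and Nfix had effects that differed by 0.21 (exact permutation p = 0.195, adjusted p = 0.234), and Nfib and Nfix by -0.27 (exact permutation p = 0.065, adjusted p = 0.0975). The Nfib and Nfix pair passed without replicate 3 of the wild type hemisphere (-0.36, exact permutation, adjusted p = 0.03). The Nfib and Nfic effects differed by -0.01 (exact permutation p = 0.955). With both regions exchanged together, Nfia minus Nfic and Nfic minus Nfix also had the smallest exact permutation p, 0.1, and the other 3 pairs had 0.3 to 1. A difference within an array shows unequal change and not which member moved.

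No member passed the test between regions. In wild type progenitors the hemisphere minus vermis differences of the brightest probe sets were -0.10 for Nfia, 0.12 for Nfib, -0.16 for Nfic and -0.05 for Nfix, and 0 of 4 passed (limma, adjusted p from 0.980), with 0 of 4 at an unadjusted p under the threshold. In SmoM2 progenitors they were 0.08, 0.09, 0.04 and 0.04, and 0 of 4 passed, with 0 of 4 at an unadjusted p under the threshold. Few genes passed at the adjusted threshold: 0.187% of all genes and 0.0533% of probe sets in wild type, and 0.0605% of genes and 0.0333% of probe sets in SmoM2. At an unadjusted p under the threshold the shares of genes were 6.32% in wild type and 3.63% in SmoM2. The SmoM2 hemisphere arrays of Nfib were all above its SmoM2 vermis arrays, with 12.333 as the lowest hemisphere value and 12.328 as the highest vermis value, and 10.7% of all genes had regions without overlap there. On the dim Nfib probe set 1416293_at the wild type hemisphere arrays were all above the wild type vermis arrays, as for 4.07% of all probe sets (difference 0.46, limma, unadjusted p = 0.00499, adjusted p = 0.483). The dim Nfix probe set 1451443_at differed by -0.45 in wild type (limma, unadjusted p = 0.0181, adjusted p = 0.725). The sample titles do not state whether the replicate numbers pair hemisphere and vermis pools. Same-numbered pools of a genotype were taken as a random block in a further fit. With it, 198 genes in place of 34 differed by region in wild type and 39 in place of 11 in SmoM2. None of them was a member of the family.

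The SmoM2 effect on Nfia in the hemisphere minus that in the vermis was 0.18 ± 0.13 (SE), which did not pass (limma, unadjusted p = 0.188, adjusted p = 1). The threshold was passed by 0% of genes and 0% of probe sets, while 564 genes had an unadjusted p under it. Among the probe sets, 1438236_at and 1446990_at had the largest such differences within Nfia, 0.91 (unadjusted p = 0.0338) and 0.67 (unadjusted p = 0.0202), each with an adjusted p of 1.00 in limma. On those probe sets the hemisphere minus vermis difference in wild type was -0.79 (limma, unadjusted p = 0.0121, adjusted p = 0.655) and -0.55 (unadjusted p = 0.00919, adjusted p = 0.603). Neither passed. So a passed test in the hemisphere beside one that was not passed in the vermis does not show that Nfia responded differently by region.

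Of the genes that earlier work in mice links to nuclear factor I in granule neurons, most did not pass within a region. Of 9 listed genes 8 were measured on probe sets of their own. One gene rose and 1 fell among hemisphere samples, beside 7.62% and 7.18% of all genes, and the same numbers held for the vermis, beside 7.56% and 9.46%. The median difference of the list was -0.02 in the hemisphere and -0.03 in the vermis, beside -0.05 and -0.06 over all genes. In the mean of both regions 2 rose, Tiam1 (0.41, limma, adjusted p = 0.000990) and Efnb1 (0.26, adjusted p = 0.0131), and 2 fell, Cntn2 (-0.99, adjusted p = 9.09e-06) and Wnt7a (-0.32, adjusted p = 0.0359), beside 35.5% of all genes that passed there. Cntn2, an adhesion molecule of granule cells that extend their axons, fell in both regions. It read 9.28, 9.25 and 9.04 in SmoM2 hemisphere against 10.04, 9.82 and 10.42 in wild type hemisphere (difference -0.90, limma, adjusted p = 0.000982). In the vermis it read 9.43, 9.25 and 9.16 in SmoM2 against 10.46, 10.13 and 10.45 in wild type (difference -1.07, limma, adjusted p = 0.000230).

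Tiam1, an activator of the GTPase Rac, rose in the hemisphere. It read 7.91, 8.01 and 8.08 in SmoM2 hemisphere against 7.37, 7.39 and 7.67 in wild type hemisphere (difference 0.52, limma, adjusted p = 0.00480), and its vermis difference of 0.31 did not pass (adjusted p = 0.0634). The hemisphere call was lost when all Tiam1 probe sets were averaged (0.21, adjusted p = 0.125). Efnb1, the ephrin-B1 ligand of Eph receptors, rose in the vermis, with 7.21, 7.09 and 7.08 in SmoM2 against 6.85, 6.72 and 6.75 in wild type (difference 0.35, limma, adjusted p = 0.0288). That call was lost without any 1 of 5 vermis arrays, and its hemisphere difference of 0.17 did not pass (adjusted p = 0.281).

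The other 5 did not pass in either region. For the secreted ligand Wnt7a the hemisphere difference was -0.38 and the vermis difference -0.26. For Gabra6, a GABA receptor subunit of mature granule neurons, they were -0.12 and -0.16, at levels of 2.90 to 3.43, around the arrays' lower quartile. Cdh2, which encodes N-cadherin, differed by 0.07 in each region. For the NMDA receptor subunit Grin2c the hemisphere and vermis differences were -0.12 and -0.05, and for the endocytic scaffold gene Itsn1 they were 0.08 and -0.02.

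Of the genes linked to the family in glia and in neural progenitors, 11 of 11 were measured. In each region 3 rose and 2 fell, beside 7.62% and 7.18% of all genes for the hemisphere samples, and 7.56% and 9.46% for those of the vermis. The median difference of the list was -0.05 in the hemisphere and 0.20 in the vermis, beside -0.05 and -0.06 over all genes. In the mean of both regions 5 rose and 3 fell, beside 35.5% of all genes that passed there. Sox9, a factor of neural stem cells and glia, read 8.46, 8.37 and 8.37 in SmoM2 hemisphere against 7.59, 7.32 and 7.16 in wild type hemisphere (difference 1.05, limma, adjusted p = 1.65e-05). In the vermis it read 8.41, 8.45 and 8.47 in SmoM2 against 7.56, 7.53 and 7.45 in wild type (difference 0.93, limma, adjusted p = 4.66e-05). These groups were far apart in both regions.

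Apcdd1, Mmd2 and Zcchc24 are known as joint targets of SOX9 and NFIA in the developing spinal cord, and they did not move together. Zcchc24 rose by 1.08 in the hemisphere (limma, adjusted p = 4.82e-05) and by 0.69 in the vermis (adjusted p = 0.00221). Apcdd1, a membrane inhibitor of Wnt signals, rose by 0.86 in the hemisphere (limma, adjusted p = 0.00166) and by 0.60 in the vermis (adjusted p = 0.0164). Mmd2 fell, with 6.96, 7.73 and 7.60 in SmoM2 hemisphere against 8.51, 7.89 and 8.42 in wild type hemisphere (difference -0.84, limma, adjusted p = 0.0121). In the vermis Mmd2 differed by -0.96 (limma, adjusted p = 0.00518). The hemisphere call of Mmd2 was lost without SmoM2 hemisphere replicate 1 (-0.61, limma, adjusted p = 0.0583), and the vermis call of Apcdd1 without SmoM2 vermis replicate 2 (adjusted p = 0.0577) or wild type vermis replicate 1 (adjusted p = 0.0543).

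Insc, a gene of spindle orientation that NFIX is known to act on in mouse neural progenitors, fell in both regions. It read 5.63, 5.69 and 5.40 in SmoM2 hemisphere against 6.80, 7.02 and 6.92 in wild type hemisphere (difference -1.34, limma, adjusted p = 1.34e-05). In the vermis the difference was -1.47 (limma, adjusted p = 5.55e-06). The other 6 did not pass within a region, and 3 of them passed in the mean of both regions: Hes1 (0.55, limma, adjusted p = 0.0243), Ezh2 (0.32, adjusted p = 0.0479) and Fabp7 (-0.37, adjusted p = 0.0190). Calls of listed genes in the mean were not checked with the replicate block. With that block 4312 genes in place of 6451 passed in the mean. The astroglial genes Gfap, Slc1a3 and Fabp7 differed by -0.27, -0.21 and -0.47 in the hemisphere and by -0.11, 0.20 and -0.27 in the vermis. Hes1, an effector of Notch, differed by 0.64 (limma, adjusted p = 0.0935) and 0.47 (adjusted p = 0.197), the histone methyltransferase gene Ezh2 by 0.32 in each region, and Bbx by -0.05 and -0.01. Without replicate 3 of the wild type hemisphere, the hemisphere calls numbered 2 among granule neuron genes and 6 among glial and progenitor genes, and the vermis calls 3 and 5.

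**Figure D4:**
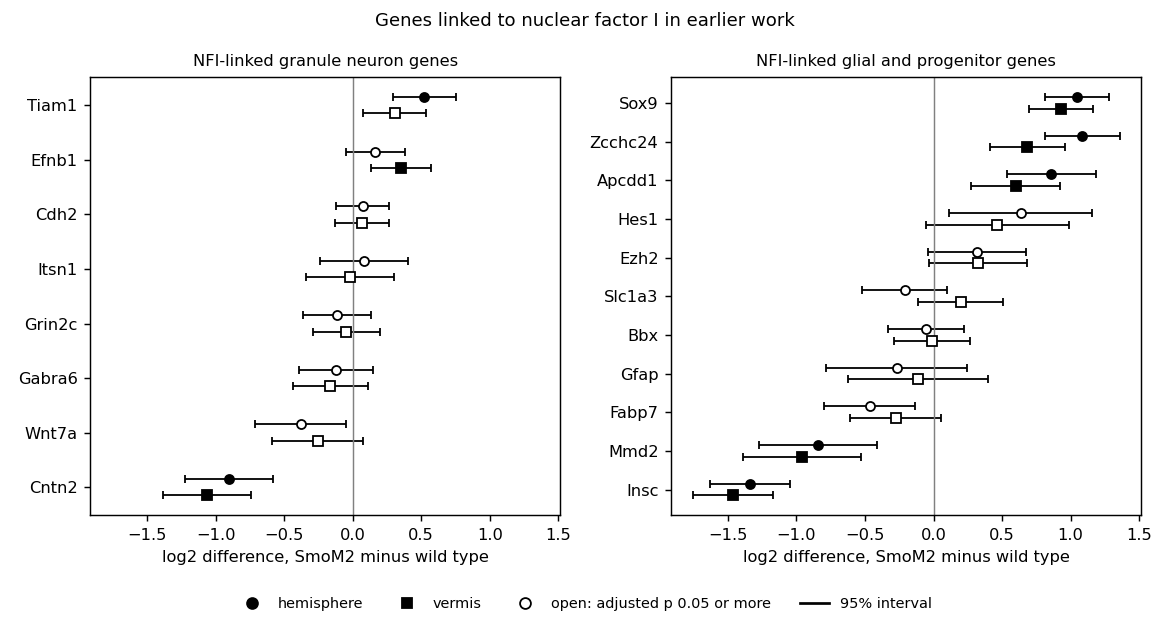
SmoM2 minus wild type log2 difference, with the 95% interval of the limma fit, of the 8 measured granule neuron genes and the 11 glial and progenitor genes linked to nuclear factor I. Circles give the hemisphere and squares the vermis, and filled symbols passed at an adjusted p under 0.05 over all genes. Cntn2, Mmd2 and Insc fell and Sox9, Zcchc24 and Apcdd1 rose in both regions.

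Several cell types besides granule cells use nuclear factor I genes, and their markers differed between the genotypes. The marker counts that follow stand beside 7.62% of all genes that rose and 7.18% that fell in the hemisphere. In the vermis these shares were 7.56% and 9.46%. The granule cell markers Atoh1, Barhl1, Zic1, Pax6 and Neurod1 were bright in all groups, their summed linear level being 13125 to 14061 in SmoM2 hemisphere, 17817 to 20246 in wild type hemisphere, 13769 to 14349 in SmoM2 vermis and 18411 to 20660 in wild type vermis. Atoh1 was the 1 marker of the 5 that rose, while 3 fell among hemisphere samples and 2 among vermis samples. The wider granule cell lineage list of 13 genes had 1 riser in each region, while 9 genes fell in SmoM2 hemisphere and 8 in SmoM2 vermis.

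Of the 8 astroglial markers, 2 rose (Slc1a2 and S100b) and 3 fell (Gja1, Aqp4 and Gdf10) in each region. Their summed linear level was 4525 to 6008 in SmoM2 hemisphere against 6363 to 8057 in wild type hemisphere, and 5031 to 6374 in SmoM2 vermis against 6523 to 7959 in wild type vermis. All 8 measured oligodendrocyte markers fell in both regions, with sums of 3219 to 4815 in SmoM2 hemisphere against 9232 to 10542 in wild type hemisphere, and 3582 to 5515 in SmoM2 vermis against 11718 to 16689 in wild type vermis. Of 5 microglial markers 4 fell in each region. These linear sums did not overlap between genotypes within a region for astroglia or oligodendrocytes and were lower in SmoM2. Such sums weigh the brightest markers most. The mean log2 level of the 8 astroglial markers did overlap, at 8.54 to 8.95 in SmoM2 hemisphere against 8.78 to 9.19 in wild type hemisphere, and at 8.78 to 9.16 in SmoM2 vermis against 8.96 to 9.30 in wild type vermis. The part of these cell types in the values of Nfia, Nfib, Nfic and Nfix was not tested.

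Of the rarer cell types, 3 of 4 markers of GABAergic interneurons fell in the hemisphere and 4 of 4 in the vermis, and 1 of 2 markers of unipolar brush cells fell in each region. For Purkinje cells 0 of 4 passed in the hemisphere and 1 of 4 fell in the vermis. For endothelial cells 0 of 5 passed in the hemisphere and 2 of 5 fell in the vermis, and of 6 pericyte and fibroblast markers 1 rose and 1 fell in each region. Of 5 measured hedgehog readouts, Gli1, Ptch1, Hhip and Ccnd1 rose in each region, and Mycn differed by 0.41 in each and did not pass.

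The genes whose values followed Nfia most closely over the 12 arrays, among 9095 genes brighter than the median gene, were Fry (Pearson r = 0.966), Pabpc1 (r = 0.956) and Slc1a2 (r = 0.955). Nfia itself separated the genotypes and the arrays share their normalization, so these coefficients describe the likeness of the profiles and carry no p-value. Fry, which encodes a microtubule-binding protein, rose by 0.98 in the hemisphere (limma, adjusted p = 6.96e-05) and by 0.55 in the vermis (adjusted p = 0.00620). Slc1a2, the glutamate transporter gene that is also among the astroglial markers, rose by 0.76 (limma, adjusted p = 0.000549) and by 0.54 (adjusted p = 0.00650). Pabpc1, which encodes a protein that binds the poly(A) tail, rose by 0.28 in the hemisphere (limma, adjusted p = 0.0433) and differed by 0.21 in the vermis (adjusted p = 0.105). With all probe sets of a gene averaged, Fry differed by 0.08 and 0.03 and Slc1a2 by 0.23 and 0.28, and none of these passed. The Pabpc1 call was lost whichever of the 12 arrays was left out. No such genes are named for Nfib, Nfic and Nfix, whose brightest probe sets did not pass.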

How the data were processed

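RNA of 12 pooled samples was measured on Affymetrix mouse 3' expression arrays as biotin-labelled cRNA, per the labels. The deposited values are log2 expression per probe set, which the authors made with Partek and RMA per the submitters' processing notes. No version of either tool is stated in the labels, and RMA leaves no detection call. The table held 45101 probe sets, of which 64 controls were left out. Of the rest, 34945 had 1 gene symbol, 932 several and 9160 none. The probe set with the highest mean represented each of 18193 genes.

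One limma 3.58.1 fit (R 4.3.3, lmFit and eBayes) with a mean for each of 4 groups and 8 residual degrees of freedom gave all contrasts, two-sided, with Benjamini-Hochberg adjustment over all genes or all 45037 probe sets and a threshold of 0.05. Intervals are at 95%. The fit was tested on simulated data. The median SD within a group was 0.13 log2 units. Deviations of same-numbered hemisphere and vermis arrays correlated at 0.14, 0.27 and 0.17 in SmoM2 and at 0.53, 0.34 and 0.51 in wild type. Between genotypes the same-number correlations ran from -0.22 to 0.28, a range that holds the SmoM2 values. The sample titles give replicate numbers and do not state what the numbers pair. The random block and the joint exchange took them to pair regions within a genotype, and whether they also pair genotypes is not known.

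The members and gene lists were chosen with earlier results of these data known. From each list up to 8 genes with the smallest p for the mean of both regions were named, plus 8 fixed genes, and for a member that passed, the 3 genes of highest correlation. Bbx lies outside this rule and completes its list. Etv1 had no probe set of its own. Alternatives covered the probe set summary, normalization, dim genes, moderation, weights, the groups in the fit, the replicate block and each array left out. The counts without wild type hemisphere replicate 3 and the exchange of both regions together were added after seeing the data.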

Additional observations from a re-analysis of the deposited data

How the results depend on the processing

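Of 24 results for the 4 members, under alternatives that gave 544 values, 520 kept direction and side of the threshold, 0 lost a call, 5 gained one and 19 changed sign. Nfia in the hemisphere (0.40 to 0.76, adjusted p at most 0.0385) and in the mean of both regions held throughout. Nfia in the vermis passed with all probe sets averaged (0.44, adjusted p = 0.0313), with a trended and robust prior (0.23, adjusted p = 0.0170) and without moderation (0.23, adjusted p = 0.0333). With each array left out in turn it ran from 0.17 to 0.27. The mean of Nfib passed with the trended prior (-0.16, adjusted p = 0.0209) and without wild type hemisphere replicate 1 (range -0.20 to -0.12).

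All sign changes were of values that did not pass. Nfic turned to 0.0846 in the hemisphere with array weights and to 0.0480 between wild type regions with probe sets averaged. Leaving out single arrays gave -0.29 to 0.15 for Nfic in the hemisphere and -0.0508 to 0.21 for Nfix in the vermis. Between regions it gave -0.35 to 0.0888 (Nfic) and -0.31 to 0.10 (Nfix) in wild type, and -0.0047 to 0.0888 (Nfic) and -0.0350 to 0.0861 (Nfix) in SmoM2. For the difference of SmoM2 effects it gave -0.11 to 0.0398 for Nfib, -0.0446 to 0.39 for Nfic and -0.0597 to 0.35 for Nfix. Of the pairs, Nfib minus Nfic turned to 0.0097 with probe sets averaged, to 0.0561 with a second quantile normalization and ran from -0.0858 to 0.12 over single arrays left out. Nfic minus Nfix lost its call with probe sets averaged (-0.23) and ran from -0.31 to -0.16, Nfia minus Nfic from 0.37 to 0.59 and Nfib minus Nfix from -0.36 to -0.18. With both regions of a replicate number exchanged together as a block, Nfia minus Nfib (0.47), Nfia minus Nfic (0.46) and Nfic minus Nfix (-0.25) lost their calls at an adjusted p of 0.2, since 20 arrangements cannot give a p under 0.1.

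The number of genes that passed moved by over 1.5 times as follows. Testing all 34945 probe sets with 1 gene symbol gave 4478, 4663 and 10854 in the hemisphere, vermis and mean and 17 between SmoM2 regions. Brighter genes alone gave 3937 in the mean, 21 between wild type and 6 between SmoM2 regions, where fewer genes were tested. Between wild type and between SmoM2 regions, 5 and 1 passed without moderation and 15 and 42 with array weights. Fitting only the groups compared gave 1753 in the hemisphere and 3 between wild type regions. The random replicate block gave 198 and 39 there, and the pairing changed no member's call (for Nfia, hemisphere adjusted p = 0.0100 and vermis adjusted p = 0.112). Leaving out 1 array gave 1633 to 4277 in the hemisphere, 1756 to 3828 in the vermis, 8 to 58 and 2 to 18 between regions and 0 to 1 for the interaction. The cause was not tested for any of these.

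The 23 other named genes were checked within each region and not in the mean of both. Their 1052 values included 31 lost calls, 17 gained and 19 sign changes, all of the last among uncalled values. With probe sets averaged, Itsn1 (-0.14), Slc1a3 (0.0833) and Bbx (0.38) turned in the hemisphere and Bbx (0.30) in the vermis. A second quantile normalization turned Itsn1 in the hemisphere (-0.0302) and Grin2c in the vermis (0.0670). In the vermis Itsn1 and Bbx also turned with median centring (0.0117 and 0.0234) and with array weights (0.00354 and 0.00443). Single arrays left out gave -0.19 to 0.0667 (Bbx, hemisphere), -0.13 to 0.16 (Itsn1), -0.0907 to 0.0635 (Bbx), -0.13 to 0.0164 (Grin2c) and -0.26 to 0.0713 (Gfap) in the vermis. Dim probe sets have no known distance from background.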
